A study of Mus musculus with 67 samples.

Results

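The genes described here are 9 genes of transforming growth factor β (TGF-β) signalling and of the ADAM proteases. They are the ligand *Tgfb1*, the receptors *Tgfbr1* and *Tgfbr2*, the signal carriers *Smad2*, *Smad3* and *Smad4*, the inhibitor *Smad7*, and the proteases *Adam10* and *Adam17*. They were taken by name, not by a measured value, from 24530 genes in the second sequencing experiment, and the 9 were also found among the 24421 gene symbols of the pilot experiment. T cells were sorted from the hypothalamus and from the brain without hypothalamus (rest brain) of mice on standard diet (SD) or a high-fat high-sugar (HFHS) diet and were sequenced in bulk in 67 libraries, 59 of the second experiment and 8 of the pilot. In the second experiment, libraries hold pooled cells, from 5 mice each for the activated conventional T cells, and mice were 6 weeks old when the HFHS diet began. The numbers in some pool labels span more or fewer mice. The labels of this experiment give neither the length of the diet nor the gate of the Tregs, and the number of mice per Treg library is not given in the sources used here. For activated conventional T cells the study names CD4+CD25-Foxp3GFP-CD44 hi as part of the gate. The hypothalamus gave 4 libraries for each of the 8 combinations of cell type, strain (Balb/c or C57Bl/6J) and diet. In the rest brain, activated conventional T cells of C57Bl/6J mice gave 4 libraries on SD and 3 on the HFHS diet; those of Balb/c mice gave 3 on each diet. Tregs of the rest brain gave 4 libraries on each diet from C57Bl/6J mice, and in Balb/c mice 4 on the HFHS diet and 2 on SD. Balb/c mice were female and C57Bl/6J mice male, so that strain and sex cannot be told apart. Expression of GFP from *Foxp3*, the transcription factor of Tregs, marked the Tregs of the reporter mice.

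Each pilot group had 1 library from pooled female mice. From the hypothalami of 9 Foxp3GFP Balb/c mice per diet, after 16 weeks on HFHS diet or SD, came CD44 low+int T cells (CD4+CD25-) and Tregs (CD4+CD25+Foxp3GFP+). CD4+CD25- and CD4+CD25++ T cells came from the hypothalami of 7 leptin-deficient *ob*/*ob* mice and 7 C57Bl/6J wild-type (WT) mice, of an age that the labels do not give. Their labels give no diet either. In its text the study puts the *ob*/*ob* mice on standard diet, while a figure caption of this comparison mentions the HFHS diet.

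TGF-β1 is secreted in a latent form and, once released, binds the receptor TGFBR2, which joins and activates TGFBR1. The activated receptor phosphorylates SMAD2 and SMAD3, which bind SMAD4 and act on transcription in the nucleus, while SMAD7 blocks the receptor. In T cells this pathway restrains activation and supports the induction of Foxp3. ADAM10 and ADAM17 are membrane proteases that shed the outer part of surface proteins, among them TNF and its receptors, and ADAM17 can also cleave TGFBR1.

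The libraries differed in depth, mostly among hypothalamic Tregs. Total counts ran from 13196689 to 20538309 in hypothalamic activated conventional T cells and from 11340063 to 28187008 in those of the rest brain. Tregs of the rest brain had 8938477 to 24985589 counts, and Tregs of the hypothalamus 1724149 to 38482277. Genes with more than 10 counts numbered 9018 to 10143 and 10246 to 11527 in activated conventional T cells of hypothalamus and rest brain, 5438 to 9622 in Tregs of the rest brain and 2108 to 9905 in hypothalamic Tregs. A value of 3 counts or fewer is taken here as the limit of detection, and 3 counts equal 0.078 to 1.74 CPM (counts relative to each library's sum) in hypothalamic Tregs and 0.106 to 0.336 CPM in the other libraries of the second experiment. At this limit lay 61 of 144 values of the 9 genes in hypothalamic Tregs (42.4%), 4 of 126 in Tregs of the rest brain (3.17%), and 0 of 144 and 0 of 117 in activated conventional T cells of hypothalamus and rest brain. In pool 42_46 of Balb/c mice on SD, all 9 genes were at the limit in hypothalamic Tregs. Replicate libraries of a group correlated with r from 0.856 to 0.928 in hypothalamic activated conventional T cells, but with r from 0.33 to 0.644 in hypothalamic Tregs.

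Markers matched the labelled cell types in most libraries. The 5 Treg markers summed to 2717 to 4856 CPM in Tregs of the rest brain, against 444 to 663 CPM in activated conventional T cells there. In hypothalamic Tregs this sum had a median of 2712 CPM, against 489 CPM in activated conventional T cells. C57Bl/6J libraries had *Xist*, the transcript of female cells, at 0 to 1.84 CPM and Y-linked genes at 35.9 to 766 CPM. Balb/c libraries had Y-linked genes at 0 to 0.286 CPM, and in 2 of them, hypothalamic Tregs on SD from pools 32_36 and 42_46, *Xist* was no higher than the Y-linked genes (0 and 0.265 CPM). In the pilot, the CD4+CD25- library labelled as female WT mice had *Xist* at 0 counts but Y-linked genes at 211, and the *ob*/*ob* CD4+CD25++ library, also female by its label, had 0 and 12. Besides many *Xist* counts, 83 Y-linked counts were found in the *ob*/*ob* CD4+CD25- library and 35 in Tregs on the HFHS diet, both labelled female. The WT CD4+CD25- library held 2918 CPM of Treg markers beside 2392 CPM of T-cell markers, against 304 to 1214 CPM of Treg markers in the other 3 pilot libraries of CD4+CD25- cells.

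A few libraries stood apart. In hypothalamic Tregs of C57Bl/6J mice on SD from pool 11_15, the 5 T-cell markers summed to 155 CPM and the Treg markers to 73.7 CPM, with *Il2ra* at 0, while 6 macrophage or monocyte markers reached 2423 CPM (*Lyz2* the most abundant), 7 microglial markers 1347 CPM and endothelial markers 3917 CPM. Hypothalamic Tregs of Balb/c mice on SD from pool 32_36 had 25144 CPM of microglial markers beside 3679 CPM of T-cell markers. The microglial sum was 1373 CPM in hypothalamic Tregs of C57Bl/6J mice on SD from pool 67_71, 729 CPM in those on the HFHS diet from pool 06_10, and 738 CPM in activated conventional T cells of the rest brain of Balb/c mice on SD from pool 42_46. Fewer than 5000 genes had more than 10 counts in 10 hypothalamic Treg libraries. The study's sort removed cells with CD11b, CD14, F4/80, B220 or CD8a on their surface. In the pilot, the WT CD4+CD25++ library held 35139 CPM of microglial markers, *P2ry12* the most abundant, 87.4 CPM of T-cell markers and 2.44 CPM of Treg markers, with *Cd4*, *Lck* and *Cd2* at 0.

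Levels of different genes are compared here per transcript length, in TPM. With the strains pooled, *Tgfb1* had the highest median of the 9 in each cell type and tissue. In Balb/c libraries alone it was lower (10.8 TPM) than *Adam10* (18.5), *Tgfbr2* (18.02) and *Smad4* (13.4) in activated conventional T cells of the rest brain, and lower (6.10) than *Smad2* (17.4) and *Smad4* (9.03) in hypothalamic Tregs. In hypothalamic activated conventional T cells, *Tgfb1* had a median of 42.3 TPM and was above the next gene, *Adam10* (21.6 TPM), in 15 of 16 libraries. *Tgfbr2* (19.1 TPM), *Smad4* (14.2), *Adam17* (14.2), *Smad2* (11.8), *Smad7* (8.02), *Tgfbr1* (5.76) and *Smad3* (3.81) followed. Among neighbours, *Adam10* was above *Tgfbr2* in 7 of 16 libraries, *Smad4* above *Adam17* in 10 and *Adam17* above *Smad2* in 9, so these did not differ beyond their spread. Among those of the rest brain, *Tgfb1* (27.2 TPM) was above *Tgfbr2* (20 TPM) in 8 of 13 libraries, which pools strains of opposite order. *Tgfb1* was above *Tgfbr2* in every C57Bl/6J library (medians 41.04 and 21.63 TPM). In Balb/c mice it was above only in the library from pool 42_46 (medians 10.8 and 18.02 TPM). In the pooled order, *Adam10* (17.6 TPM), *Smad4* (13.4), *Smad7* (11.1), *Smad2* (9.64), *Adam17* (7.68), *Tgfbr1* (7.51) and *Smad3* (5.25) came after *Tgfb1* and *Tgfbr2*. Ligand, receptors, Smads and proteases were thus all measured in activated conventional T cells.

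Tregs of the rest brain had *Tgfb1* at a median of 64.2 TPM, above *Adam17* (22.0 TPM) in 12 of 14 libraries. *Adam10* (19.0 TPM), *Tgfbr1* (12.1), *Smad7* (11.8), *Tgfbr2* (10.3), *Smad4* (9.58), *Smad2* (9.38) and *Smad3* (7.10) followed, and each of these was above the next in no more than 10 of 14 libraries. In hypothalamic Tregs, *Tgfb1* (24.8 TPM) was above *Smad2* (17.1 TPM) in 10 of 16 libraries, then came *Smad7* (4.19), *Tgfbr2* (4.12), *Tgfbr1* (3.90), *Smad4* (0.294), *Adam10* (0.127), *Adam17* (0.008) and *Smad3* (0). Apart from *Smad2* over *Smad7*, also in 10 libraries, no neighbour further down this order was above the next in more than 9 of 16 libraries. In these Tregs the lowest library of each gene had 0 CPM, while the highest ran from 38.8 CPM for *Smad3* to 926 CPM for *Smad2*.

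**Figure D1:**
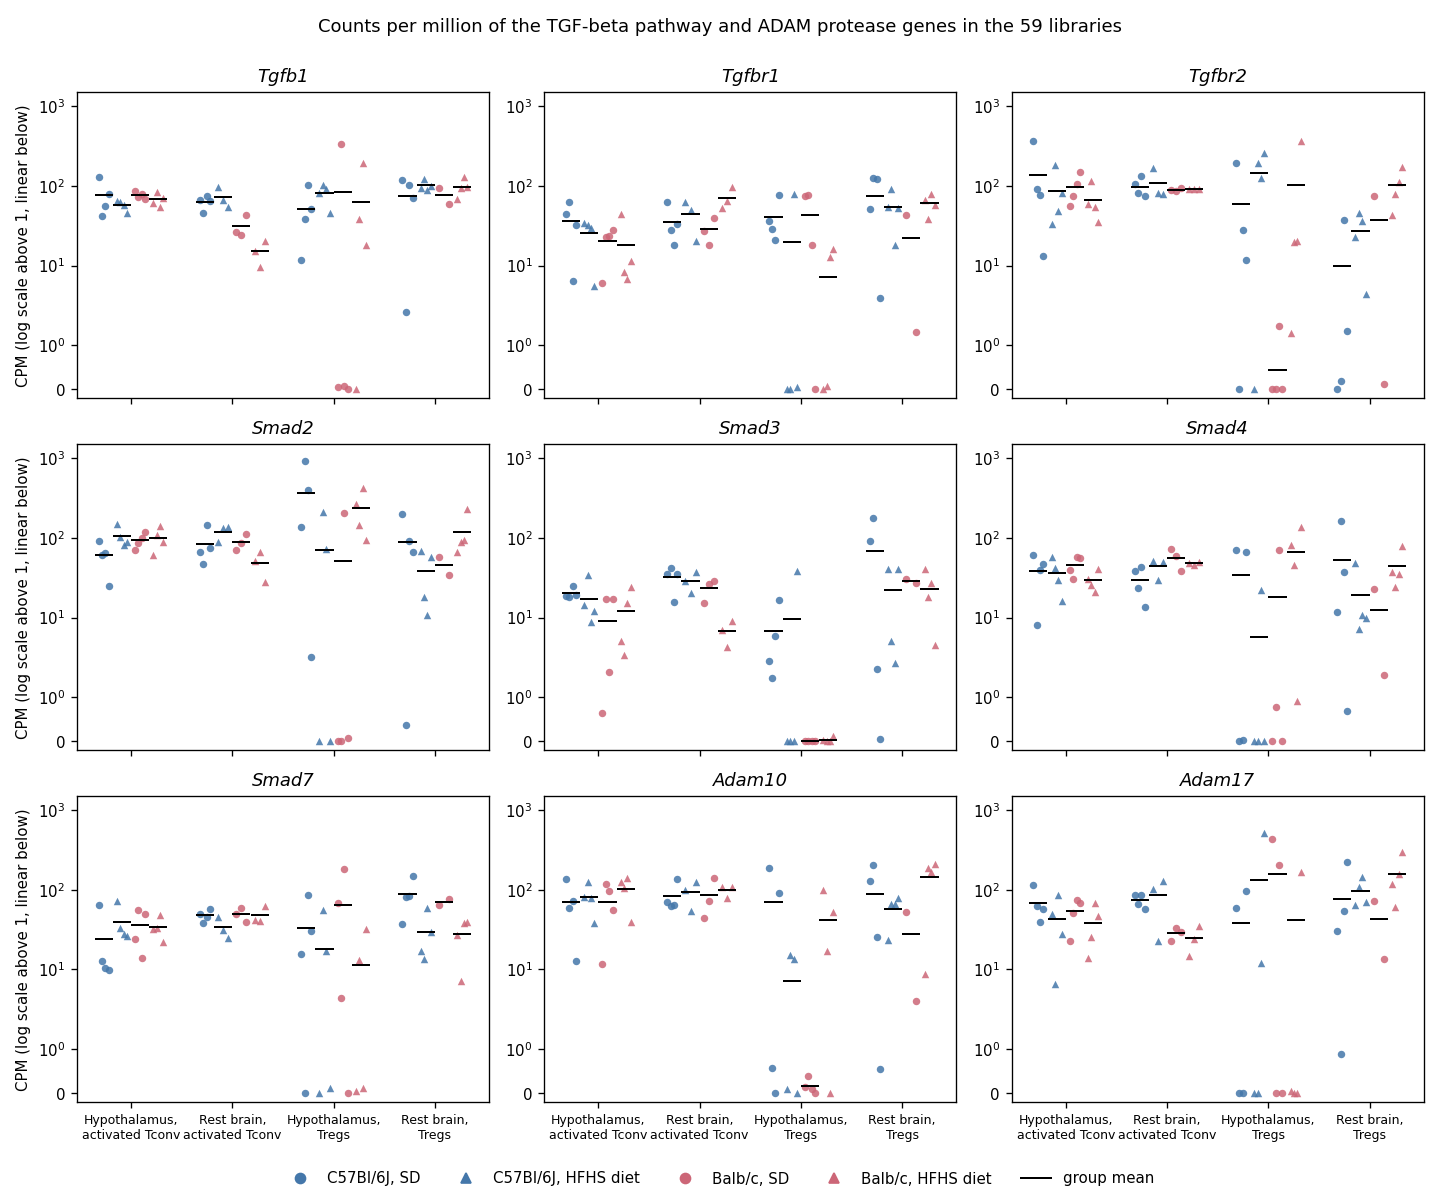
Levels of the 9 genes in the 59 libraries of the second experiment. Each panel shows 1 gene and each symbol 1 library, in CPM on a scale that is logarithmic above 1 and linear below. Color shows the strain, the shape of the symbol the diet (circles SD, triangles HFHS diet), and black lines the mean of each group. *Tgfb1* and *Adam17* lie lower in Balb/c than in C57Bl/6J activated conventional T cells of the rest brain, and many libraries of hypothalamic Tregs lie at or near 0.

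The clearest difference was found between the strains, in activated conventional T cells of the rest brain, where Balb/c mice had less *Tgfb1* and *Adam17* than C57Bl/6J mice. In CPM, *Tgfb1* was 98.1, 66.4 and 55.0 in C57Bl/6J mice on the HFHS diet and 66.1, 46.3, 75.1 and 64.4 on SD. In Balb/c mice, *Tgfb1* was 15.3, 9.59 and 20.3 CPM on the HFHS diet and 26.6, 24.5 and 43.4 CPM on SD. Every Balb/c library thus lay below every C57Bl/6J library, with medians of 22.4 and 66.1 CPM. The fitted level of *Tgfb1* fell by 1.32 on the log2 scale in Balb/c mice (edgeR, standard error 0.28, adjusted p = 0.00179, lower in 6 of 6 Balb/c libraries than the C57Bl/6J median).

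*Adam17* had 104, 22.9 and 130 CPM in C57Bl/6J mice on the HFHS diet and 86.7, 67, 87.1 and 58.3 CPM on SD. Its values in Balb/c mice were 14.9, 24.1 and 34.9 CPM on the HFHS diet and 22.8, 33.5 and 29.9 CPM on SD. Of the C57Bl/6J libraries, 1 (HFHS diet, pool 38_42) lay within the Balb/c range and the others lay above it. *Adam17* fell by 1.29 in Balb/c mice on the log2 scale (edgeR, standard error 0.33, adjusted p = 0.00734, lower in 6 of 6 libraries than the C57Bl/6J median).

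*Smad4*, the partner that SMAD2 and SMAD3 share, was higher in Balb/c mice in CPM, with near-equal medians in TPM. It had 48.6, 45.6 and 50.2 CPM in Balb/c mice on the HFHS diet and 72.1, 59.1 and 38.7 CPM on SD. In C57Bl/6J mice, the values were 51.6, 29.8 and 50.4 CPM on the HFHS diet and 38.2, 23.3, 43.8 and 13.6 CPM on SD. The strains overlapped, with medians of 49.4 and 38.2 CPM, and 13.4 and 13.3 TPM. *Smad4* rose by 0.84 in Balb/c mice on the log2 scale (edgeR, standard error 0.29, adjusted p = 0.0411, higher in 6 of 6 libraries than the C57Bl/6J median). Without single libraries this call was kept in 5 of 13 fits, with log2 values from 0.70 to 0.95 and adjusted p from 0.0302 to 0.121 (edgeR). It ended without C57Bl/6J libraries 38_42 (0.78), 67_71 (0.70) or 11_15 (0.78) and without Balb/c libraries 37_41 (0.79), 47_25 (0.83), 15_21 (0.88), 32_36 (0.70) or 16_20 (0.84), and with no filter on low counts (0.81). It was also lost within SD (1.05, adjusted p = 0.187, edgeR) and within the HFHS diet (0.64, adjusted p = 0.235, edgeR).

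These 3 of 9 genes passed the test between strains in the rest brain, and 5 had an unadjusted p under 0.05 (4326 of 12287 genes). Of all genes tested, 23.5% passed it (edgeR, 1493 higher and 1394 lower in Balb/c mice). The share of the 9 genes is therefore close to that of all genes. Their median log2 difference was 0.08, against −0.03 for all genes tested. Among the 6 that did not pass, *Smad3* had 4.27 to 29.2 CPM in Balb/c and 15.5 to 41.6 CPM in C57Bl/6J mice, with a log2 difference of −0.92 (edgeR, standard error 0.39, adjusted p = 0.099, lower in 6 of 6 libraries). *Smad3* passed the test without the C57Bl/6J library on SD from pool 62_66 (log2 −1.09, adjusted p = 0.0451, edgeR). The receptor *Tgfbr2* had 87.5 to 93.6 CPM in Balb/c and 74.6 to 168 CPM in C57Bl/6J mice. Scaled by TMM, its Balb/c means were 109 rather than 91.5 CPM on the HFHS diet and 93.3 rather than 90.05 CPM on SD. *Tgfbr1*, *Smad2*, *Smad7* and *Adam10* overlapped between strains with log2 differences of 0.42, −0.27, 0.55 and 0.32 (edgeR, adjusted p from 0.129 to 0.552).

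The call for *Tgfb1* was kept in each of the 13 fits without a single library (adjusted p from 0.000568 to 0.00593, edgeR), and so was that for *Adam17* (adjusted p from 0.000744 to 0.0277, edgeR). Within 1 diet, *Tgfb1* had a log2 difference of −1.77 on the HFHS diet, where it passed, and −0.91 on SD, where it did not (edgeR, adjusted p = 0.121, against 4.68e-05 to 0.121 over all alternatives). *Adam17* had −1.26 on the HFHS diet alone and did not pass (edgeR, adjusted p = 0.146, against 0.000362 to 0.146). Without the library with microglial markers, Balb/c on SD from pool 42_46, the log2 differences were −1.53 for *Tgfb1*, −1.32 for *Adam17* and 0.90 for *Smad4*, and each of these passed. In such bulk samples, fewer cells of a type and less RNA per cell cannot be told apart.

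Of 22 genes of other ADAMs and their partners, 14 were tested in the same libraries. In Balb/c mice 0 rose and 4 fell (edgeR), beside the 23.5% of all genes that passed, with a median log2 difference of −0.82 against −0.03 for all genes. *Frmd8*, whose product binds the iRhom proteins that carry ADAM17 to the cell surface, had medians of 31.2 CPM in Balb/c and 94.2 CPM in C57Bl/6J mice. It fell by 1.62 on the log2 scale (standard error 0.24, edgeR, adjusted p = 0.000118, lower in 6 of 6 libraries), with no overlap of the strains. *Tspan14*, a tetraspanin that accompanies ADAM10, fell by 1.10 (standard error 0.25, edgeR, adjusted p = 0.00394) with medians of 45.7 and 121 CPM and no overlap. *Pcsk7*, a proprotein convertase, fell by 1.58 (standard error 0.41, edgeR, adjusted p = 0.00923) with medians of 9.56 and 46.8 CPM. Both were lower in 6 of 6 Balb/c libraries than the C57Bl/6J median.

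Among 11 substrates of ADAM10 or ADAM17 in T cells, all tested, 0 rose and 3 fell in Balb/c mice (edgeR), again beside 23.5% of all genes, with a median log2 difference of −0.56. They were the TNF receptors *Tnfrsf1a* (log2 −1.22, standard error 0.33, edgeR, adjusted p = 0.0125) and *Tnfrsf1b* (−0.79, 0.27, adjusted p = 0.0433) and the death ligand *Fasl* (−0.77, 0.27, adjusted p = 0.0417), each lower in 6 of 6 libraries. On the Smad side, 22 of 25 other Smads and Smad regulators were tested and 1 changed (edgeR), with a median of 0.21. *Ski*, which represses Smad-driven transcription, rose by 1.25 on the log2 scale (standard error 0.26, edgeR, adjusted p = 0.00189, higher in 6 of 6 libraries), with medians of 64.9 and 34.0 CPM. Of the ligands and their activators 5 of 13 were tested, of receptors and coreceptors 5 of 9 and of genes induced by TGF-β 8 of 10, and 0 of these changed by edgeR's adjusted p. The medians of these lists were −0.24, 0.46 and 0.03.

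Other values that differ between these libraries are given for comparison. TMM factors, which rescale library totals, were 0.799 to 1.04 in Balb/c and 1.005 to 1.17 in C57Bl/6J libraries of these cells. The 5 T-cell markers, led by *Cd3g*, summed to 6229 to 7291 CPM in Balb/c and 6492 to 8428 CPM in C57Bl/6J mice. *Cd8a* and *Cd8b1*, which mark CD8 T cells, summed to 276 to 479 CPM in Balb/c and to 1.94 to 736 CPM, with a median of 39.8 CPM, in C57Bl/6J mice, although CD8a was among the exclusion markers of the sort. Microglial markers were at 85.1 to 738 and 68.9 to 111 CPM, neuronal markers at 0.104 to 90.9 and 0.08 to 2.45 CPM, and oligodendrocyte markers at 53.7 to 473 and 40.5 to 160 CPM. Endothelial markers were at 10.9 to 24.5 CPM (median 17.3) in Balb/c and 18.9 to 73.7 CPM (median 32.1) in C57Bl/6J mice, and macrophage or monocyte markers at 0.055 to 17.4 and 0 to 2.63 CPM. Their part in the strain difference was not tested.

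In the hypothalamus, the same cells gave another picture. *Tgfb1* had 54.6 to 85.9 CPM in Balb/c mice (median 72.2) and 42.5 to 130 CPM in C57Bl/6J mice (median 60.1), and the ranges overlapped. Its log2 difference was 0.11 (edgeR, standard error 0.21, adjusted p = 0.986, higher in 7 of 8 Balb/c libraries than the C57Bl/6J median). *Adam17* had medians of 48.6 and 53.5 CPM and *Smad4* 35.0 and 40.7 CPM. By edgeR 0 of 9 genes passed the test between strains and 0 had an unadjusted p under 0.05 (1076 of 10875 genes). DESeq2 and limma called 0 of the 9, and 2.1% of all genes passed (edgeR). The smallest adjusted p among the 9 was 0.848 for *Smad3* (edgeR, log2 −0.85, lower in 7 of 8 libraries). Of the pathway lists, the substrates had 1 gene that passed, *Fasl*, which fell by 0.57 (standard error 0.15, edgeR, adjusted p = 0.0461, lower in 8 of 8 libraries), and the other 5 lists had 0 genes that passed.

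The difference between tissues in the strain effect was tested itself. For *Tgfb1*, the strain difference in activated conventional T cells was higher by 1.47 in the hypothalamus than in the rest brain on the log2 scale (edgeR interaction, standard error 0.33, adjusted p = 0.00341, over alternatives 1.43 to 1.65 with adjusted p from 0.000246 to 0.00437). It was the only 1 of 9 genes to pass, at an unadjusted p under 0.05 too. Of 12833 genes, 10.4% passed and 2903 had an unadjusted p under 0.05 (edgeR). *Adam17* had an interaction of 1.05 (edgeR, standard error 0.58, adjusted p = 0.292) and *Smad4* −0.81 (edgeR, adjusted p = 0.347), so that a difference between tissues was not shown for either.

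With strains and diets together, activated conventional T cells had more *Tgfb1* in the hypothalamus than in the rest brain. Medians were 66.1 and 46.3 CPM, 14 of 16 hypothalamic libraries were above the rest brain median, and 7 of 9 pools with both tissues were higher in the hypothalamus, though the ranges overlapped. *Tgfb1* rose by 0.69 on the log2 scale (edgeR, standard error 0.22, adjusted p = 0.026). It was the 1 gene of 9 to pass, and 3 had an unadjusted p under 0.05 (3540 of 12833 genes). Of all genes, 16.8% passed (edgeR, 726 higher and 1436 lower in the hypothalamus). The 9 genes had a median log2 difference of −0.28, against −0.09 for all genes tested. In Balb/c mice alone *Tgfb1* was higher by 1.44, and in C57Bl/6J mice alone the value was 0.01 (edgeR, adjusted p = 1.0, over all alternatives 0.000343 to 1.0). With mouse pools as a block in the model, the value was 0.95 and did not pass (edgeR, adjusted p = 0.094), and 148 genes passed in all. Without single pools the call was kept in 14 of 20 fits. It ended without Balb/c pools 15_21 (0.58), 16_20 (0.58), 47_25 (0.64), 32_36 (0.63) or 37_41 (0.62) and without C57Bl/6J pool 11_15 (0.65). The number of all genes that passed was 1425 without pool 15_21, against 2162.

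The receptor *Tgfbr1* had lower values in many hypothalamic libraries, with medians of 25.8 and 40.2 CPM and 13 of 16 libraries below the rest brain median. Its log2 difference of −0.94 did not pass (edgeR, standard error 0.37, adjusted p = 0.0835). It did with DESeq2 (−0.95), limma voom (−1.03), no filter on low counts (−0.91), Balb/c libraries alone (−1.58) and without C57Bl/6J pool 43_47 (−1.09). *Smad7*, the inhibitor, had medians of 29.9 and 45.5 CPM and a log2 difference of −0.56 (edgeR, standard error 0.27, adjusted p = 0.164), which passed with limma voom (−0.73). *Smad4* passed in Balb/c libraries alone (−0.81). *Tgfbr2*, *Smad2*, *Smad3*, *Adam10* and *Adam17* had log2 differences from −0.63 to −0.02 (edgeR, adjusted p from 0.33 to 0.969).

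Of the pathway lists, ADAMs and partners had 14 of 22 genes tested, 1 higher and 2 lower in the hypothalamus (edgeR), with a median of 0.08. *Frmd8* rose by 1.13 on the log2 scale (standard error 0.25, edgeR, adjusted p = 0.0019, higher in 15 of 16 libraries), with medians of 143 and 65.2 CPM. The other pair were close to the limit of detection: *Adam12* had 4 counts in all 16 hypothalamic libraries and 215 in the rest brain, and *Timp3*, a metalloprotease inhibitor, 3 and 93 counts. Both had 3 counts or fewer in 16 of 16 hypothalamic libraries and met the filter through the rest brain alone. No difference is read from them. Among ligands and activators 7 of 13 were tested, 0 rose and 1 fell, with a median of −0.47. *Tgfb3* had 96 counts in the hypothalamus and 457 in the rest brain (edgeR, fitted log2 −4.75, standard error 1.34, adjusted p = 0.0119, lower in 15 of 16 libraries). It had 3 counts or fewer in 15 of 16 hypothalamic and 4 of 13 rest brain libraries, so the fitted value is no bound. *Tgfb3* met the filter mostly through the rest brain, which largely set its direction. Receptors and coreceptors (5 of 9 tested, median −0.48), Smads and regulators (22 of 25, −0.10), genes induced by TGF-β (8 of 10, 0.21) and substrates (11 of 11, 0.16) had 0 genes that passed (edgeR).

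**Figure D2:**
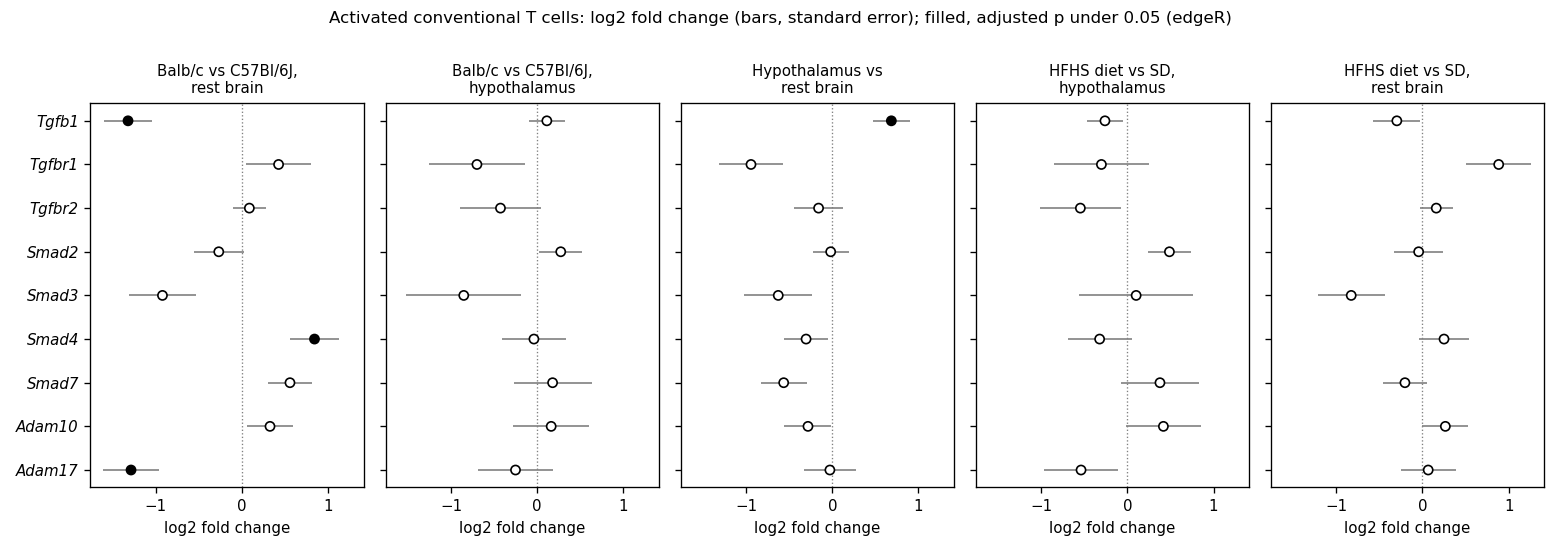
Log2 fold changes of the 9 genes in activated conventional T cells, between strains and diets in each tissue and between tissues. Points are estimates of edgeR, bars extend 1 standard error to either side, and filled points had an adjusted p under 0.05. The filled points are *Tgfb1*, *Smad4* and *Adam17* between strains in the rest brain and *Tgfb1* between tissues.

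Between the cell types of the rest brain, Tregs had more *Tgfb1* than activated conventional T cells in most pools, though not past the threshold. Tregs had 2.63 to 130 CPM with a median of 95.1 CPM, against 46.3 CPM, 13 of 14 Treg libraries were above that median, and Tregs were higher in 11 of 12 pools with both. The exception was the Treg library of C57Bl/6J mice on SD from pool 11_15, at 2.63 CPM. The log2 difference was 0.98 (edgeR, standard error 0.37, adjusted p = 0.0716). It passed without that pool (1.11, adjusted p = 0.0045, edgeR), with DESeq2 (1.05, adjusted p = 0.0137), limma voom (0.94) and Balb/c libraries alone (1.82), but not in C57Bl/6J libraries alone. Medians of *Tgfb1* in Tregs and activated conventional T cells were 94.3 and 22.4 CPM in Balb/c mice. In C57Bl/6J mice they were 97.5 and 66.1 CPM. Over all 25 alternatives, the log2 difference was 0.36 to 1.82 and the adjusted p 0.0045 to 0.917, with 4 under 0.05. *Tgfbr2* had medians of 37.2 CPM in Tregs and 90.6 CPM in activated conventional T cells, and 12 of 14 Treg libraries were below that. Its log2 difference of −1.84 (edgeR, standard error 0.73, adjusted p = 0.0914) passed with DESeq2, limma voom and no filter on low counts (adjusted p from 0.0279 to 0.587 over alternatives). By edgeR 0 of 9 genes passed and 2 had an unadjusted p under 0.05 (3479 of 13956 genes). DESeq2 called 2 and limma voom 3 of the 9, and 15% of all genes passed (edgeR, 555 higher and 1539 lower in Tregs). The median log2 difference was −0.01 for the 9 genes and −0.26 for all. Marker sums differed as well between Tregs and activated conventional T cells of the rest brain, with medians of 94.9 and 24.5 CPM for endothelial, 198 and 95.9 CPM for microglial and 21.5 and 276 CPM for CD8 T-cell markers, and their part was not tested.

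Of 13 ligands and activators of TGF-β, 8 were tested between the cell types of the rest brain, and 2 rose and 2 fell in Tregs (edgeR), with a median of −0.55 against −0.26 for all genes. *Lrrc32*, whose product GARP holds latent TGF-β on the surface of Tregs, had medians of 42.3 and 0.176 CPM and rose by 7.40 on the log2 scale (standard error 1.07, edgeR, adjusted p = 1.78e-05, higher in 12 of 14 libraries). *Itgb8*, a subunit of an integrin that releases TGF-β, had medians of 11.1 and 0 CPM and a fitted log2 difference of 7.47 (standard error 1.36, edgeR, adjusted p = 0.000384, higher in 12 of 14). Of activated conventional T cells, 7 of 13 libraries had 3 counts or fewer of *Lrrc32* and 10 of 13 of *Itgb8*. Both fitted values are thus no bounds. *Itgb8* met the filter mainly through Tregs, which set its direction. *Tgfb3* had 2 counts over the 14 Treg libraries and 457 over the 13 others. With 3 counts or fewer in 14 of 14 Treg libraries, it met the filter through activated conventional T cells alone. That set its direction, and no difference is read from it. Of genes induced by TGF-β, 8 of 10 were tested and 1 rose, with a median of 0.95: *Itgae*, which encodes CD103, rose by 4.02 (standard error 0.84, edgeR, adjusted p = 0.0014, higher in 13 of 14).

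Of 9 receptors and coreceptors 6 were tested and 1 fell, with a median of −1.0: *Tgfbr3*, a coreceptor, had medians of 0 and 23.0 CPM (edgeR, log2 −4.77, standard error 1.37, adjusted p = 0.0149, lower in 14 of 14). *Tgfbr3* had 3 counts or fewer in 12 of 14 Treg libraries, so its fitted value is no bound. It met the filter mainly through activated conventional T cells, which largely set its direction. Of 25 other Smads and regulators 22 were tested and 1 rose, with a median of −0.19: *Tgif1*, a corepressor of Smads, rose by 1.95 (standard error 0.33, edgeR, adjusted p = 0.000146, higher in 14 of 14). ADAMs and partners had 18 of 22 tested, 4 higher and 2 lower, with a median of −0.19. *Frmd8* rose by 1.60 (standard error 0.26, edgeR, adjusted p = 0.000109, higher in 13 of 14) and *Timp2*, an inhibitor of metalloproteases, by 1.99 (standard error 0.59, edgeR, adjusted p = 0.0186, higher in 13 of 14). *Adam12* had 5 counts in Tregs and 215 in activated conventional T cells. It had 3 counts or fewer in 14 of 14 Treg libraries and met the filter through activated conventional T cells alone. No difference is read from it. Among the 11 substrates 2 rose and 2 fell (edgeR), with a median of −0.44. *Tnfrsf1b* rose by 1.72 and *Cd40lg* fell by 3.91 (edgeR, standard errors 0.29 and 0.73, adjusted p = 0.000157 and 0.000474, in 13 and 14 of 14 libraries).

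In the hypothalamus, the comparison of Tregs with activated conventional T cells rested on sparse Treg values. By edgeR 0 of 9 genes passed and 1 had an unadjusted p under 0.05 (1858 of 11283 genes). Of all genes, 7.73% passed (edgeR, 61 higher and 811 lower in Tregs). DESeq2 called 1 of the 9 and limma voom 8, all lower in Tregs, and limma voom called 7329 genes in all. Medians in Tregs and activated conventional T cells were 0.485 and 80.1 CPM for *Adam10*, 0.026 and 50.6 CPM for *Adam17* and 0 and 16.0 CPM for *Smad3*. By edgeR's fit, *Smad3* had the largest log2 difference of the 9. In activated conventional T cells it had 13 to 478 counts in Balb/c mice (0.652 to 24.4 CPM) and 8.72 to 34.0 CPM in C57Bl/6J mice. In Tregs of Balb/c mice it had 0 to 2 counts in 8 libraries, 3 in all, where 3 counts in each would give a mean of 0.186 CPM. Tregs of C57Bl/6J mice had 0, 0, 0 and 38.8 CPM on the HFHS diet and 2.85, 1.74, 5.95 and 16.6 CPM on SD. Thus 14 of 16 Treg libraries lay below the median of activated conventional T cells, and the library with the most *Smad3*, from pool 77_80, lay above all of those.

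The fitted log2 difference of *Smad3* was −4.83 (edgeR, standard error 1.81, adjusted p = 0.11), which depends on the prior count where libraries are at 0 and is no bound. It passed without pool 77_80 (−5.91, adjusted p = 0.0203, edgeR, over alternatives 4.24e-05 to 0.981) and in Balb/c libraries alone (−9.06), but not in C57Bl/6J libraries alone (−1.19). With mouse pools as a block, *Smad3* (−7.57, adjusted p = 0.000628, edgeR) and *Adam10* (−5.45, adjusted p = 0.0317) passed, as did 5526 genes in all. Limma voom gave −2.42 for *Tgfb1* and −4.55 for *Adam17*, where edgeR gave 0.04 and 0.91 (adjusted p = 0.998 and 0.869, lower in 10 of 16 Treg libraries for both). The 9 genes had a median log2 difference of −0.32, against −0.60 for all genes tested (edgeR).

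Whether the *Smad3* difference between cell types depends on strain was tested in the hypothalamus. The interaction was −7.51 on the log2 scale, with the lower Treg values of *Smad3* in Balb/c mice (edgeR, standard error 2.13, adjusted p = 0.0256, over alternatives −7.58 to −7.45 with adjusted p from 0.000309 to 0.0256). It was the 1 gene of 9 to pass, at an unadjusted p under 0.05 too. Of 11283 genes, 8.02% passed and 1826 had an unadjusted p under 0.05 (edgeR). The size of the *Smad3* interaction is no bound either, since the Balb/c Treg libraries had 2 counts or fewer. Of the C57Bl/6J Treg libraries, 4 of 8 also had 3 counts or fewer. The interaction thus rests on Treg values at the limit of detection, and no dependence on strain is read from it. In the rest brain 0 of 9 genes passed for the same interaction and 0 had an unadjusted p under 0.05 (2466 of 13956 genes). DESeq2 called 0 of the 9, and 4.8% of all genes passed (edgeR). The smallest adjusted p there was 0.314 for *Tgfb1* (edgeR, log2 1.32, standard error 0.67).

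In the pathway lists, hypothalamic Tregs had more *Lrrc32*, with 33202 counts over 16 libraries against 2 over the 16 of activated conventional T cells (edgeR, adjusted p = 4.3e-05, fitted log2 12.2, higher in 10 of 16). It was the 1 of 6 tested ligands and activators to pass, with a list median of 0.74. Substrates of the proteases had 2 of 11 genes lower and a median of −0.80. *Fasl* had 14 counts in Tregs and 89022 in activated conventional T cells (edgeR, adjusted p = 7.37e-11, fitted log2 −12.35, lower in 16 of 16), and *Cd40lg* fell by 4.12 (standard error 1.13, edgeR, adjusted p = 0.0131, lower in 16 of 16). ADAMs and partners had 12 of 22 tested and 2 lower, *Adam8* with 6 against 4928 counts and *Adam19* with 2169 against 23941 (edgeR, fitted log2 −8.74 and −4.05, adjusted p = 0.000277 and 0.0498, lower in 16 and 15 of 16), and a median of −3.30. Receptors (5 of 9 tested) and Smads and regulators (22 of 25) had 1 lower gene each, *Acvr1b* (1 against 520 counts) and *Smurf2* (306 against 5144), and genes induced by TGF-β (8 of 10, median −0.36) had 0 that passed. *Acvr1b* also had 3 counts or fewer in 9 of 16 libraries of activated conventional T cells, so its 520 counts come mostly from the others. In Tregs, *Fasl* and *Adam8* had 3 counts or fewer in 15 of 16 libraries, *Acvr1b* in 16 and *Smurf2* in 14. *Lrrc32* had so in 16 of 16 of activated conventional T cells. These genes met the filter mainly through the other cell type, which set their direction. The receptor median was −4.86, or −3.68 with *Acvr1b* at its bound, and that of Smads and regulators −0.56. Marker medians differed as well between hypothalamic Tregs and activated conventional T cells, at 0.069 and 218 CPM for CD8 T-cell markers. They were 1.8 and 35.3 CPM for endothelial and 243 and 95.3 CPM for microglial markers, and the part of these cells was not tested.

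Between the tissues, Tregs gave a similar picture for *Smad3*, with a median of 0 CPM in the hypothalamus and 27.4 CPM in the rest brain. Of the hypothalamic libraries, 15 of 16 lay below the rest brain median. The log2 difference of −6.00 did not pass (edgeR, standard error 2.03, adjusted p = 0.0802), and did without pools 77_80 (−7.05, adjusted p = 0.0253, edgeR) or 67_71 (−6.80, adjusted p = 0.0472, edgeR) and in Balb/c libraries alone (−10.16) but not in C57Bl/6J libraries alone (−2.38), with adjusted p from 6.46e-06 to 1.0 over all alternatives. With pools as a block 0 genes passed in all. By edgeR 0 of 9 genes passed and 1 had an unadjusted p under 0.05 (1678 of 12602 genes). DESeq2 called 1 and limma voom 7 of the 9, and 4.93% of all genes passed (edgeR, 38 higher and 583 lower in the hypothalamus). The number of all genes that passed was 1202 without C57Bl/6J pool 11_15 and 409 without Balb/c pool 42_46, against 621, and over the alternatives it ran from 0 in C57Bl/6J libraries alone to 4734 with limma voom. The 9 genes had a median of −0.36 and all genes tested −0.61. *Tgfb1* had medians of 42.2 and 95.1 CPM and *Smad2* 116 and 66.4 CPM, with wide overlap (edgeR, log2 −0.36 and 1.11, adjusted p = 0.997 and 0.861).

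Between the tissues in Tregs, the list genes that passed were lower in the hypothalamus, as were 583 of the 621 genes that passed in all (edgeR). They were the receptor *Acvr1b* (1 count against 757) of 7 tested receptors, *Smurf2* (306 against 4281) of 22 tested Smads and regulators, *Adam8* (6 against 7885) and *Adam33* (0 against 526) of 16 tested ADAMs and partners, and *Fasl* (14 against 3061), *Lag3* (54 against 1302) and *Havcr2* (141 against 1963) of 11 substrates. These counts are sums over 16 hypothalamic and 14 rest brain libraries, and at least 14 of the 16 hypothalamic libraries had 3 counts or fewer of each. Of the rest brain libraries, 10 of 14 also had 3 counts or fewer of *Acvr1b*, 9 of *Adam33*, 8 of *Havcr2* and 7 of *Fasl*, so that a few libraries carry these sums. All these genes met the filter mostly through the rest brain, which largely set their direction, so no difference between tissues is read from it. Medians of the lists were −3.30, −0.53, −2.64 (−2.58 with *Adam33* at its bound) and −0.71. Ligands and activators (7 of 13 tested, median −0.40) and genes induced by TGF-β (9 of 10 tested, −0.59) had 0 that passed.

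Between strains, Tregs differed in 0 of the 9 genes. In the hypothalamus 1 of 9 had an unadjusted p under 0.05 (262 of 7715 genes), DESeq2 called 1 and limma voom 0. By edgeR 0.013% of all genes passed, which was 1 gene and none of the 9. The member with the unadjusted p under 0.05 was *Smad3*, below the C57Bl/6J median in 8 of 8 Balb/c libraries (edgeR, fitted log2 −8.62, adjusted p = 0.29). It had 3 counts or fewer in 8 of 8 Balb/c and 4 of 8 C57Bl/6J libraries. *Smad3* thus met the filter through C57Bl/6J libraries alone, which set its direction, and no difference is read from it. *Tgfb1* ran from 0 to 336 CPM in Balb/c (median 9.09) and from 11.9 to 103 CPM in C57Bl/6J hypothalamic Tregs (median 67.3). In the rest brain 0 of 9 passed by edgeR, DESeq2 or limma voom, and 0 had an unadjusted p under 0.05 (1045 of 11711 genes). By edgeR 0.299% of all genes passed. There, *Tgfb1* in Tregs had medians of 94.3 CPM in Balb/c and 97.5 CPM in C57Bl/6J mice (edgeR, log2 −0.05, standard error 0.57, adjusted p = 1.0). In the 6 pathway lists, 0 genes passed in either tissue, and list medians ran from −1.66 to 0.77 in the hypothalamus and from −0.15 to 0.91 in the rest brain. The tissue difference of the strain effect in Tregs was passed by 0 of 9 (1 unadjusted p under 0.05, DESeq2 1) and by 8.59% of 12602 genes (1082, or 248 without the libraries with markers of other cells), with the smallest adjusted p for *Smad3* (edgeR, log2 −7.33, adjusted p = 0.0693). For the tissue difference of the cell type effect these were 0 of 9 (1 unadjusted, DESeq2 1) and 12.9% of 14764 genes, again with *Smad3* first (edgeR, log2 −3.28, adjusted p = 0.151). An unadjusted p under 0.05 was found in 2258 of the 12602 genes for the strain effect and 3130 of the 14764 for the cell type effect (edgeR).

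The HFHS diet changed 0 of the 9 genes in each of the 4 cell populations by edgeR, and 0.0% of all genes tested passed in each. In hypothalamic activated conventional T cells, 0 of 9 had an unadjusted p under 0.05, as had 406 of 10875 genes. Log2 differences ran from −0.55 for *Tgfbr2* to 0.49 for *Smad2*. *Smad7* lay above the SD median in 8 of 8 HFHS libraries (32.4 and 19.0 CPM, log2 0.38, standard error 0.45, edgeR, adjusted p = 1.0), with overlap. In hypothalamic Tregs 0 of 9 had an unadjusted p under 0.05 (197 of 7715 genes), and log2 values ran from −1.83 to 4.45 (edgeR).

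In the rest brain, activated conventional T cells had 2 of 9 genes with an unadjusted p under 0.05 (591 of 12287 genes). *Tgfbr1* had medians of 58.5 CPM on the HFHS diet and 28.1 CPM on SD and was above that in 5 of 6 libraries (edgeR, log2 0.88, standard error 0.38, adjusted p = 0.956). *Smad3* had 14.9 and 29.2 CPM and was below the SD median in 5 of 6 (edgeR, log2 −0.83, adjusted p = 1.0). Neither passed the adjustment. Tregs of the rest brain had 1 of 9 (853 of 11711 genes), *Smad7*, with 7.18 to 59.5 CPM on the HFHS diet (median 28.3) and 37.5 to 150 CPM on SD (median 78.4). All 8 HFHS libraries were below the SD median, the ranges overlapped, and the log2 difference was −1.50 (edgeR, standard error 0.62, adjusted p = 0.514). In all 8, *Adam17* (medians 114 and 42.4 CPM) and *Tgfbr2* (44.8 and 0.855 CPM) were above the SD median (edgeR, log2 0.87 and 1.45, adjusted p = 1.0 for both). DESeq2 and limma voom called 0 of the 9 genes in these 4 comparisons, while over all genes DESeq2 called 16, 180, 12 and 327 and limma voom 0, 4, 1 and 16, in the order hypothalamic activated conventional T cells, hypothalamic Tregs, then the same in the rest brain.

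In the 6 pathway lists, 0 genes passed between diets in any of the 4 populations (edgeR). Median log2 differences of the lists ran from −0.19 to 0.49 in hypothalamic activated conventional T cells and from −0.12 to 0.41 in those of the rest brain. In Tregs they ran from −9.56, a list with 1 gene tested, to 1.42 in the hypothalamus and from −2.96 to 0.49 in the rest brain. A dependence of the diet effect on strain was passed by 0 of 9 genes in each population (edgeR). In the hypothalamus, 0 of 9 had an unadjusted p under 0.05 in activated conventional T cells (493 of 10875 genes) and 1 of 9 in Tregs (1293 of 7715 genes). After adjustment 0.0% of all genes passed in both cell types (edgeR). In these Tregs DESeq2 called 2 of the 9, *Adam10* and *Smad3*, among 1328 genes in all. In the rest brain, 0 of 9 had an unadjusted p under 0.05 in activated conventional T cells (1569 of 12287 genes) and in Tregs (662 of 11711 genes). DESeq2 called 0 of the 9. After adjustment 0.61% of all genes passed in activated conventional T cells and 0.0% in Tregs (edgeR). Those 0.61% were 75 genes, and without the Balb/c library on SD from pool 42_46 they were 0.

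In the pilot experiment, with 1 library per group, values carry no replicate check, and the intervals given cover counting error only, as do the limits of detection above. Of the reads counted in the pilot files, 82.9% to 99.6% were assigned to no gene, unaligned reads included, with 99.6% in the *ob*/*ob* CD4+CD25++ and 99.2% in the WT CD4+CD25- library. A gene was called with more than 20 normalized reads in at least 1 library and a ratio above 2 or below 0.5. *Tgfb1* had 0 to 2 counts in each of the 8 libraries, so no fold is given. In CD44 low+int T cells 2 of 9 genes were called between the diets, beside 61.9% of 6686 genes. *Tgfbr1* had 14 counts with the HFHS diet against 317 on SD, a ratio of 0.075 (interval 0.041 to 0.128), and *Smad2* 99 and 522, a ratio of 0.323 (0.258 to 0.401). The other 6 genes with a ratio ran from 0.644 for *Smad3* (interval 0.42 to 0.965) to 1.40 for *Adam17* (1.15 to 1.70).

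In Tregs of the pilot, 7 of 9 genes were called between the diets, beside 80.5% of 5445 genes. Markers of other cells differed between these libraries as well, with astrocyte markers at 34.0 CPM on the HFHS diet and 730 CPM on SD, and B-cell markers at 0 and 222 CPM. *Tgfbr1* had 1482 counts with the HFHS diet against 0 on SD, at least 411-fold higher against 3 counts in the SD library, and *Smad3* 294 and 0, at least 81.6-fold. *Adam10* had 3280 counts and 2, a ratio of 1365 with an interval from 378 to 11278. *Tgfbr2* (666 and 10 counts, ratio 55.4), *Adam17* (229 and 51, 3.74) and *Smad2* (515 and 141, 3.04) were higher on the HFHS diet as well. *Smad4* went the other way, at 0 counts with the HFHS diet against 598 on SD, a ratio of at most 0.004, and *Smad7* had a ratio of 0.7 (0.607 to 0.807). In this pair of libraries, 4 of 9 genes had 0 counts on at least 1 diet.

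Between *ob*/*ob* and WT mice, 7 of 9 genes were called in CD4+CD25- T cells, beside 89.9% of 6440 genes, all higher in *ob*/*ob* mice. The WT library had 220336 counts in all and 0 to 27 counts of each of the 9 genes. *Tgfbr2* had 564 and 27 counts, a ratio of 2.68 (1.82 to 4.10), *Adam17* 257 and 3 (11, 3.72 to 53.6), *Smad4* 327 and 2 (21, 5.76 to 174) and *Smad7* 157 and 1 (20.1, 3.56 to 800.4). *Tgfbr1*, *Smad2* and *Adam10* had 0 counts in WT mice and were at least 7.05-fold, 6.20-fold and 11.2-fold higher. Since sex-linked counts and Treg markers went against the label of this WT library, these ratios compare with the library labelled WT.

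In CD4+CD25++ T cells 7 of 9 genes were called, beside 91.4% of 5978 genes, all lower in *ob*/*ob* mice. The *ob*/*ob* library had 99925 counts in all and sex-linked counts against its label, and the WT library is the one with 35139 CPM of microglial markers. *Tgfbr1*, a gene that microglia also express, had 82115 counts in the WT library and 0 in the *ob*/*ob* library. Scaled by size factors, *Adam10* (4 and 2262 counts, ratio 0.028), *Smad7* (9 and 565, 0.249) and *Adam17* (53 and 3259, 0.254) were lower in *ob*/*ob* mice, and *Tgfbr2* had a ratio of 1.18 (0.93 to 1.47). In CPM of the *ob*/*ob* and WT libraries, *Adam10* was still lower (40.03 and 424.03). *Smad7* (90.07 and 105.91 CPM) and *Adam17* (530.4 and 610.93 CPM) lay closer together, and *Tgfbr2* was higher in *ob*/*ob* mice (840.63 and 209.39 CPM). The results for *Smad7*, *Adam17* and *Tgfbr2* thus depend on the scaling. *Smad2*, *Smad3* and *Smad4* had 0 counts in *ob*/*ob* mice and 461, 217 and 875 in WT mice. What share of these counts comes from other cells was not tested.

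Of the 9 genes, 6 are listed with a single transcript name. *Tgfbr2* has 2, which held 66.2% and 33.8% of its estimated counts, *Smad2* has 2, of which 1 held 99.5%, and *Adam17* has 5, of which 1 held 87.0%. By position in the mouse genome GRCm38.p6, *Tgfbr2*, *Smad3* and *Adam10* lie on chromosome 9 and *Smad2*, *Smad4* and *Smad7* on chromosome 18. *Tgfb1* lies on chromosome 7 from 25687002 to 25705077 with no overlapping gene, *Tgfbr1* on chromosome 4 and *Adam17* on chromosome 12 from 21323509 to 21373632, where it overlaps *Iah1*.

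Over the 16 groups of the second experiment, the genes whose mean levels were most like those of *Tgfb1* among 14764 genes were *Ppp1r18*, *Csnk1a1* and *Arfgap2* (Pearson r of log2 CPM group means 0.941, 0.934 and 0.931). For *Smad7* they were *Ranbp2*, *Zfp942* and *Jmjd1c* (r = 0.907, 0.906 and 0.906), and for *Adam10* *Snhg17*, *Smn1* and *Eola1* (r = 0.968, 0.966 and 0.964). With 16 group means, r is given as a description.

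*Tgfb1* and *Adam17* were both lower in Balb/c activated conventional T cells of the rest brain, and their promoters are shown for that reason, from RefSeq's GRCm38.p6 table, 5′ to 3′ on the strand of the gene, from 250 bases before to 50 bases after the start. The window of *Tgfb1* is chr7:25686752-25687051 on the plus strand and that of *Adam17* chr12:21373583-21373882 on the minus strand.
Tgfb1: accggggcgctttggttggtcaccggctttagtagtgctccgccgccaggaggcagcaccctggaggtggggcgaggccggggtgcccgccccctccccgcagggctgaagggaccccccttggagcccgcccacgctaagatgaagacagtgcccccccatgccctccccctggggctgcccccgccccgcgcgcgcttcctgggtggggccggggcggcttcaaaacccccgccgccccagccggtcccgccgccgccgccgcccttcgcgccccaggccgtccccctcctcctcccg
Adam17: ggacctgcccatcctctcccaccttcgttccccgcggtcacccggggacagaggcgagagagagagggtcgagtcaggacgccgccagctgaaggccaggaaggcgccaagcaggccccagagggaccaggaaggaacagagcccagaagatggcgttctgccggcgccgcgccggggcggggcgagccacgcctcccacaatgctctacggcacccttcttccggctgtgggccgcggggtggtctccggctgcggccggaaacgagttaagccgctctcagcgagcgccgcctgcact
Of their bases, 77% and 70% are G or C. Searched on both strands, the Smad box CAGAC was found 0 times in each, as was the AP-1 motif TGANTCA. Among 32851 promoters of the same length, 49.6% hold the Smad box and 7.81% the AP-1 motif. A window without these letters says nothing about the factors, and no base is in capitals because no motif was found.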

How the data were processed

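For the pilot experiment, the authors deposited raw counts per gene symbol, made with BWA and HTSeq on mm10 per the submitters' processing notes. The deposited estimated counts and the deposited TPM of the second experiment were made by the authors with Salmon for 35034 transcript names. Gene symbols were found for 34648 names (98.9%), and both quantities were added up per symbol. CPM are counts scaled to the library total.

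Rounded sums were tested in R 4.3.3 with edgeR 4.0.16 (TMM, quasi-likelihood test, Benjamini-Hochberg adjustment over all genes tested, threshold 0.05) for genes above 10 counts in 4 or more libraries in comparisons within the hypothalamus, 3 in activated conventional T cells of the rest brain, and 2 where Tregs of the rest brain are included. A gene near the limit of detection in a group can meet this filter through the compared group alone, and its direction is then set by the filter. Cell type and tissue were tested with strain and diet as terms, strain with diet, and diet with strain. Interactions tested whether one of these differences depends on another factor. A log2 difference is given with its standard error, its size divided by the square root of F. The test was tried before use on simulated data with known changes. The simulated comparisons were cell type in the rest brain and diet in hypothalamic activated conventional T cells. Hypothalamic Tregs were not simulated. Groups of the pilot hold 1 library, so 2 libraries were compared by the ratio of their counts, scaled with median-of-ratios size factors over the 8 libraries (786 genes above 0 in each), with exact Clopper-Pearson 95% intervals.

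Mouse pools were not used as a block at first. Libraries of the same pool label were no more alike than others after removal of group means: the median r was 0.005 for 12 pairs of Tregs and activated conventional T cells of the rest brain (−0.007 for 34 other pairs), with 2 pairs above 0.1, and 0.009 for 9 pairs of tissues in activated conventional T cells (0.001 for 43 others). Pools are nested in diet, and the numbers of some labels overlap (67_71 with 67_66, 15_21 with 16_20).

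The alternatives were DESeq2 1.42.0 (its Wald test, or its size factors in edgeR), no filter on low counts, filterByExpr, limma 3.58.1 (voom with quality weights), each strain or diet alone, pools as a block, and leaving out each library or pool. Fits without the libraries with markers of other cells (microglial sum above 500 CPM or T-cell sum below 1000 CPM), fits without libraries with fewer than 5000 genes over 10 counts, pools with both samples but no block, and the interactions of strain with tissue and of cell type with tissue or strain were chosen after seeing the data. The 9 genes, the 6 pathway lists (other ligands and their activators, receptors and coreceptors, other Smads and Smad regulators, genes induced by TGF-β, other ADAMs and partners, substrates of ADAM10 or ADAM17) and the marker lists were chosen with earlier results of these data known. From the lists, at most the 3 genes with the smallest adjusted p that passed are named per comparison, and some genes of the lists are not reported here. Likeness is Pearson r over means of log2(CPM + 1) in the 16 groups. Values were computed with Python 3.11.15, numpy 2.4.6, pandas 2.3.3 and scipy 1.17.1, and figures drawn with matplotlib 3.10.9.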

Additional observations from a re-analysis of the deposited data

Results flagged for a closer look

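Dixon's test was run on 107 combinations of 1 of the 9 genes with a group of 4 libraries, which reuse the same libraries. In 20 combinations a library lay far from the other 3. Chance alone gives this in about 1 of 20 for normally distributed values. Many values of hypothalamic Tregs lay at 3 counts or fewer, so that rate is no guide here. In 19 of the 20 combinations the library was the highest, and 11 lay in hypothalamic Tregs. In hypothalamic Tregs of Balb/c mice on SD, *Tgfb1* was 335.6 CPM in pool 32_36, the library with 25144 CPM of microglial markers, against 0 to 0.0878 CPM in the others, and pool 37_41 had 206.2 CPM of *Smad2*, 71.2 CPM of *Smad4* and 1.756 CPM of *Tgfbr2*. On the HFHS diet, pool 26_31 had 368.1 CPM of *Tgfbr2* and 166.3 CPM of *Adam17*. In hypothalamic Tregs of C57Bl/6J mice with HFHS diet, pool 72_76 had 79.19 CPM of *Tgfbr1* and 22.49 CPM of *Smad4*, and pool 77_80 had 38.79 CPM of *Smad3* and 524.6 CPM of *Adam17*. On SD, pool 11_15, the library with 155 CPM of T-cell markers, had 195.7 CPM of *Tgfbr2*. These values show that a gene was often high in a single hypothalamic Treg library of its group.

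In Tregs of the rest brain, *Tgfbr2* was 37.63 CPM in pool 62_66 (C57Bl/6J, SD), *Smad4* 48.06 CPM in pool 21_25 (C57Bl/6J, HFHS diet) and *Smad2* 232.3 CPM in pool 47_25 (Balb/c, HFHS diet). In hypothalamic activated conventional T cells, *Tgfbr1* was 5.532 CPM in pool 77_80 (C57Bl/6J, HFHS diet), the lowest value of its group, against 29.73 to 34.43 CPM, and 45.05 CPM in pool 11_14 (Balb/c, HFHS diet). Also there, *Smad3* was 24.95 CPM in pool 67_66 (C57Bl/6J, SD), and *Smad7* 72.89 CPM in pool 06_10 (C57Bl/6J, HFHS diet) and 63.69 CPM in pool 11_15 (C57Bl/6J, SD). In the rest brain, *Adam10* was 137.4 CPM in activated conventional T cells of pool 67_71 (C57Bl/6J, SD).

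A pair of differences between groups passed a test of the difference itself. The strain difference of *Tgfb1* in activated conventional T cells was higher by 1.475 on the log2 scale in the hypothalamus than in the rest brain (edgeR interaction, adjusted p = 0.00341, with 6 of 6 Balb/c libraries below the C57Bl/6J median in the rest brain and 1 of 8 in the hypothalamus). The difference of *Smad3* between hypothalamic Tregs and activated conventional T cells was −7.507 on the log2 scale in Balb/c relative to C57Bl/6J mice (edgeR interaction, adjusted p = 0.0256), a fitted value that is no bound because 8 of 8 Balb/c Treg libraries had 2 counts or fewer. With 4 of 8 C57Bl/6J Treg libraries at 3 counts or fewer as well, no dependence on strain is read from it.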

How the results depend on the processing

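Over the alternatives for the counts of the 9 genes that passed, 112 counts stayed as they were, 19 were higher and 8 lower. These are counts of calls and do not follow the direction of single genes. With DESeq2's Wald test, 1 gene passed between Tregs and hypothalamic activated conventional T cells and 2 in the rest brain (0 with edgeR in both), 2 between tissues in activated conventional T cells (against 1) and 1 in Tregs (against 0), 1 between strains in hypothalamic Tregs, 2 for strain by diet there, and 1 each for strain by tissue in Tregs and cell type by tissue (against 0). Limma voom called 8 and 3 between cell types in hypothalamus and rest brain and 3 and 7 between tissues in activated conventional T cells and Tregs. With no filter on low counts, 1 gene passed between cell types in the rest brain and 2 between tissues in activated conventional T cells. In Balb/c libraries alone these counts were 1 and 1 between cell types and 3 and 1 between tissues, and in C57Bl/6J libraries alone 0 between tissues in activated conventional T cells. With pools as a block, 2 genes passed between cell types in the hypothalamus and 0 between tissues in activated conventional T cells. Between strains in activated conventional T cells of the rest brain, 1 passed on SD alone and 1 on the HFHS diet alone, against 3, where fewer libraries were tested. Without single libraries or pools, the counts were 2 to 4 for this comparison, 0 to 2 between tissues in activated conventional T cells, and 0 to 1 between tissues in Tregs and between cell types in either tissue. In the pilot, with more than 20 normalized reads required in both libraries, 1 and 2 genes were called between diets in CD44 low+int T cells and Tregs and 1 and 3 between *ob*/*ob* and WT mice in CD4+CD25- and CD4+CD25++ T cells, against 2, 7, 7 and 7. Apart from the stricter minimum and the fewer libraries, the cause of these shifts was not tested.

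Over all genes, the number that passed between strains in activated conventional T cells of the rest brain ran from 802 (SD alone) to 3741 (DESeq2), against 2887, and between tissues in these cells from 1 (C57Bl/6J alone) to 7907 (no filter on low counts), against 2162. Between cell types of the hypothalamus it ran from 394 (C57Bl/6J alone) to 7329 (limma voom), against 872. Scaling by TMM moved 4 of 144 group means of the 9 genes by at least 1 standard deviation. In hypothalamic Tregs 61 of 144 values lay at 3 counts or fewer.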
